A study of Bos taurus with 18 samples.

Results

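Ribosome biogenesis factors are the proteins that transcribe, modify, cut and fold ribosomal RNA and load it with ribosomal proteins. A list of 40 such genes was read from endometrial RNA of 6 Holstein cows (Bos taurus) by taking the rows of the deposited count table that carry their symbols. All 40 were found, each on 1 of the 38001 rows, and all 40 passed the filter on low counts that left 19638 genes for testing. Each cow was sampled 3 times after Ovsynch synchronization, with the day of estrus as day 0. The first 2 samples came from day 4 and day 7 of a control cycle without progestogen, and the third from day 7 of a second synchronized cycle with an injection on day 4. Animals A, B and C were injected with a depot of 100 mg 17-hydroxyprogesterone caproate and 10 mg progesterone (the 17-OHPC/P4 arm), animals D, E and F with 100 mg progesterone (the P4 arm). Every group therefore holds 3 animals, the same cow gave 3 libraries, and no cow was sampled on day 4 of its treated cycle. The control cycle always came first, so treatment and the order of the cycles cannot be told apart.

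Ribosomes are built in the nucleolus. RNA polymerase I makes a long precursor RNA, small nucleolar ribonucleoproteins mark it for methylation and pseudouridine formation, and a large processome folds and cuts the part that becomes the small (40S) subunit. Separate factors assemble the large (60S) subunit, and the last steps take place in the cytoplasm. Cells that grow and divide are known to make many ribosomes, and the transcription factor MYC is known to drive many of these genes. The uterine lining grows under estrogen around estrus and changes to secretion as progesterone rises over the following days, which is the interval sampled here.

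Cells were taken by cytobrush, which collects mainly the surface lining. The epithelial genes EPCAM and CDH1 were at 257 CPM or more and 521 CPM or more in all 18 libraries (CPM, counts scaled to a common library size), and none of 7 epithelial markers was at 0 anywhere. The lowest levels of KRT7, KRT8, KRT18, KRT19 and CLDN4 were 49.6, 298, 68.2, 161 and 66.1 CPM. These lowest levels of single markers were scaled by library totals alone, and all other CPM values also by the TMM factors of the fit. Other cells were present too: summed stromal markers ran from 60.9 CPM (animal F, control day 7) to 5662 CPM (animal C, day 4). Animal C's control day 7 and treated libraries held 4061 and 2795 CPM of them, and animal D's control day 7 library 2926. Library totals ran from 29347255 to 40733544 counts, and the 40 genes together took 0.156% to 0.307% of them. Their lowest count in any library was 208, and their levels lay between 7.21 and 495 CPM. Animal C's libraries stood apart by red blood cell markers (HBB, ALAS2 and SLC4A1), which summed to 2386, 4171 and 359 CPM on day 4, control day 7 and treated day 7 and to 4.15 CPM or less in the other 15 libraries. Results are therefore also given without this animal, a choice made after seeing the data. Gene lengths were not used, so levels are compared between libraries and never between genes. In bulk RNA, fewer cells of a type and less RNA per cell cannot be told apart.

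Between day 4 and day 7 of the control cycle, most of the 40 genes stood lower in every cow. As log2 differences of CPM within a cow, 223 of 240 values were below 0, and the 40 means over 6 cows ran from -0.88 (RRP8) to 0.49 (BYSL) with a median of -0.48. In 29 genes the value was below 0 in 6 of 6 cows, in 8 in 5 of 6, and in 3 (NOP58, WDR74 and BYSL) in 4 or fewer. Of all genes tested, 9.03% were lower in 6 of 6 cows. The list was proposed with earlier results of these libraries in view, so the control cycle values describe the genes and test nothing.

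The fit across all genes, with both arms averaged, called 26 of the 40 lower (adjusted p under 0.05) against 4.28% of all genes, and 0 higher against 6.27%. In neither arm alone was any of the 40 called higher (0.0407% of all genes with 17-OHPC/P4 and 4.64% with P4). Within the P4 arm it called 16 lower against 4% of all genes, and within the 17-OHPC/P4 arm 0 of 40, where it called 0 genes lower in all. At an unadjusted p under 0.05 the 17-OHPC/P4 arm had 28 of the 40 (9.62% of all genes), and DESeq2 called 13 and edgeR with the animal as a replicate block 1 of them lower. The share of all genes called by DESeq2 or with the block was not counted, so these counts cannot be set against it. Median fitted log2 changes of the 40 genes were -0.48 (17-OHPC/P4) and -0.45 (P4), against -0.06 and -0.01 over all genes. Day 7 libraries lay below all day 4 libraries for 15 genes over both arms (1.37% of all genes), for 29 within the 17-OHPC/P4 arm (6.54%) and for 28 within the P4 arm (18%). Without the day 7 library of animal D the count for both arms was 14, and without any other single library it was 18 to 27. Within the P4 arm it was 3 after dropping D's day 7 or E's day 4 sample, 6 after dropping F's day 4 sample, 8 for D's day 4 or E's day 7 sample and 11 for F's day 7 sample. With all 3 libraries of animal C left out, 18 were called over both arms, 0 for 17-OHPC/P4 and 10 for P4.

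**Figure D1:**
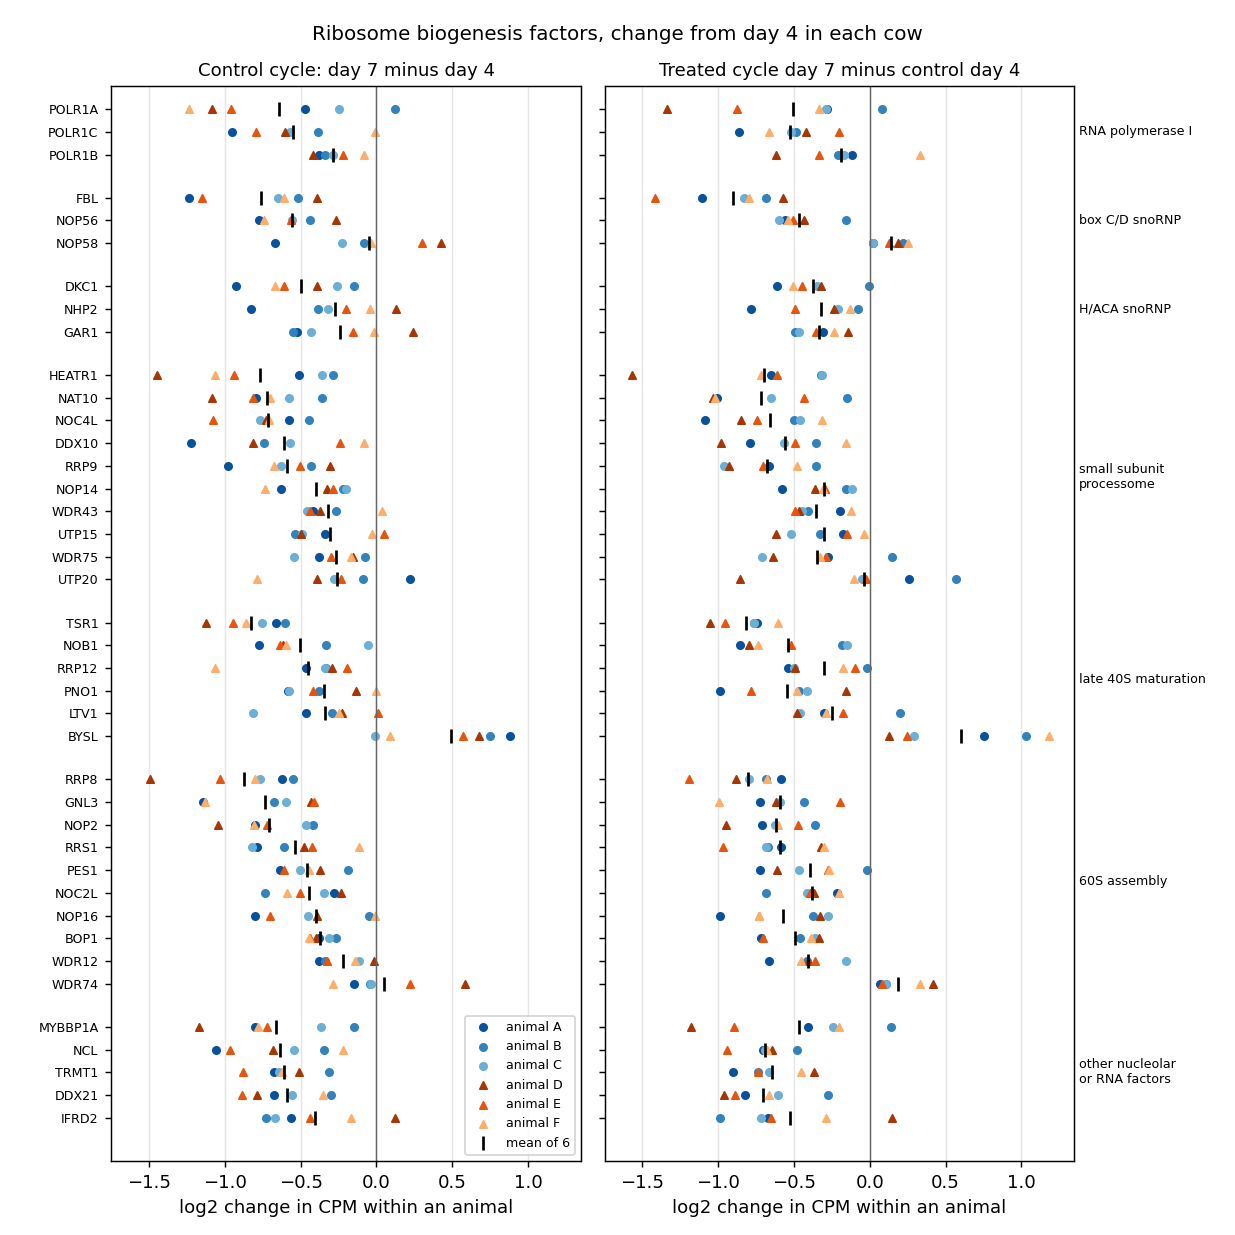
Log2 change in CPM from control day 4 within each cow, for 40 genes in rows grouped by role, on control day 7 (left) and treated day 7 (right). Circles are animals A to C, triangles D to F, and bars the mean of 6. In the left panel 223 of 240 points lie left of 0, in the right panel 214, and BYSL is the row farthest to the right in both.

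RNA polymerase I was represented by 3 subunits. POLR1A, its largest subunit, had the most negative mean and unlike changes in the arms. Day 4 levels of POLR1A (ENSBTAG00000006481) were 49.7, 32.5 and 48.6 CPM in animals A, B and C, followed by 35.9, 35.4 and 40.9 CPM on day 7. The P4 arm, animals D, E and F, had 90.8, 102 and 81.7 CPM and then 42.7, 52.6 and 34.6 CPM. All 3 animals of the P4 arm were thus at 81.7 CPM or more on day 4 and at 52.6 CPM or less on day 7. In the other arm the days overlapped, and animal B was higher on day 7 by 0.12 on the log2 scale. The 6 log2 changes were -0.47, 0.12, -0.25, -1.09, -0.96 and -1.24. POLR1B, the second largest subunit, had the least negative mean of the 3. On day 4 animals A, B and C had 44.1, 33.5 and 38.3 CPM of POLR1B (ENSBTAG00000014166), and on day 7 33.97, 26.4 and 31.5 CPM. For animals D, E and F the levels were 45.8, 41.1 and 32.3 CPM on day 4 and 34.3, 35.3 and 30.6 CPM on day 7. It was lower in 6 of 6 cows, by a mean log2 change of -0.29 ± 0.12 (SD, n = 6). POLR1C, a subunit shared with RNA polymerase III, had -0.55 ± 0.33 and was lower in 6 of 6 as well, but by only 0.01 in animal F.

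Box C/D small nucleolar ribonucleoproteins place methyl groups on ribosomal RNA with guide RNAs, and their core proteins had unlike changes. FBL, the methyltransferase fibrillarin, had the most negative mean of the 3. FBL (ENSBTAG00000002579) stood at 83.2, 65.3 and 72.1 CPM on day 4 in animals A, B and C and at 35.3, 45.5 and 45.9 CPM on control day 7. In animals D, E and F it stood at 53.3, 81.3 and 69.1 CPM on day 4 and 40.6, 36.7 and 45.3 CPM on day 7. Its highest day 7 level (animal C) lay below its lowest day 4 level (animal D), and the mean log2 change was -0.76 ± 0.35 (SD, n = 6), lower in 6 of 6. NOP56, a scaffold protein of the same particle, had -0.56 ± 0.19 (SD, n = 6), also lower in 6 of 6.

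The other scaffold protein, NOP58, had no common direction. Day 4 levels of NOP58 (ENSBTAG00000005517) were 151, 88.6 and 113 CPM in animals A, B and C, followed by 94.5, 83.6 and 96.8 CPM on day 7. The P4 arm, animals D, E and F, had 107, 103 and 103 CPM and then 144, 127 and 100.3 CPM. It was lower in the 3 cows of the 17-OHPC/P4 arm and higher in animals D and E, with changes of -0.67, -0.08, -0.23, 0.42, 0.30 and -0.04 in animals A to F. The sign of its fitted change, -0.06 with both arms averaged, depended on the fit.

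H/ACA particles convert uridine to pseudouridine. DKC1, their catalytic subunit dyskerin, had the most negative mean of the 3 proteins listed. On day 4 animals A, B and C had 98.5, 64.3 and 79.2 CPM of DKC1 (ENSBTAG00000013045), and on day 7 51.7, 58.2 and 66.1 CPM. For animals D, E and F the levels were 86.9, 109.7 and 97.4 CPM on day 4 and 66.3, 71.8 and 61.3 CPM on day 7. It was lower in 6 of 6 cows (-0.50 ± 0.29, SD, n = 6), least in animal B. GAR1, another core protein, had the least negative. GAR1 (ENSBTAG00000000748) stood at 29.1, 23.8 and 25.99 CPM on day 4 in animals A, B and C and at 20.3, 16.2 and 19.3 CPM on control day 7. In animals D, E and F it stood at 19.9, 22.7 and 19.4 CPM on day 4 and 23.6, 20.4 and 19.1 CPM on day 7. Day 7 lay below day 4 in all 3 animals of the 17-OHPC/P4 arm, while animal D was higher by 0.24 on the log2 scale and animal F was lower by 0.02 (a change of -0.02). NHP2, the third core protein, was likewise higher on day 7 in animal D only, with -0.83, -0.39, -0.32, 0.13, -0.20 and -0.04 in animals A to F.

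The small subunit processome had 10 genes, and 57 of their 60 values were below 0. HEATR1, a large scaffold protein known to be needed for transcription of the precursor as well, had the most negative mean. Day 4 levels of HEATR1 (ENSBTAG00000044100) were 46.4, 40.9 and 54.8 CPM in animals A, B and C, followed by 32.5, 33.6 and 42.7 CPM on day 7. The P4 arm, animals D, E and F, had 89.6, 93.2 and 81.5 CPM and then 32.8, 48.5 and 38.98 CPM. Day 4 and day 7 did not overlap in the P4 arm, while in the other arm animal C's day 7 level lay above animal B's day 4 level. The change was larger in each P4 animal (-1.45, -0.94 and -1.06) than in any animal of the other arm (-0.51, -0.29 and -0.36). UTP20, another scaffold protein, had the least negative. On day 4 animals A, B and C had 33.8, 23.4 and 36.9 CPM of UTP20 (ENSBTAG00000003239), and on day 7 39.4, 22.03 and 30.4 CPM. For animals D, E and F the levels were 56.7, 56.2 and 51.3 CPM on day 4 and 43.2, 47.8 and 29.7 CPM on day 7. It was higher on day 7 in animal A and lower in the other 5, with overlapping levels in the 17-OHPC/P4 arm and none in the P4 arm.

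NAT10, which acetylates cytidines of 18S ribosomal RNA, went from 60.9 ± 12.8 to 36.4 ± 4.39 CPM (SD, n = 6), by -0.72 ± 0.24 within cows. NOC4L, a partner of NOP14, changed by -0.72 ± 0.21, the RNA helicase DDX10 by -0.61 ± 0.41 and RRP9, a protein of the U3 particle, by -0.59 ± 0.23. All 4 were lower in 6 of 6 cows. NOP14 itself had -0.40 ± 0.23 and WDR75, of the subcomplex that binds the nascent precursor, -0.27 ± 0.17, both in 6 of 6. WDR43 (-0.32 ± 0.19) and UTP15 (-0.31 ± 0.26), of the same subcomplex, were lower in 5 of 6.

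Late maturation of the 40S subunit held a gene with 1 of the most negative means and the gene with the highest. TSR1, a GTPase-like protein that holds the immature 40S particle, was lower in every cow by more than 0.6 on the log2 scale. TSR1 (ENSBTAG00000004225) stood at 43.3, 38.2 and 53.05 CPM on day 4 in animals A, B and C and at 27.3, 25.2 and 31.5 CPM on control day 7. In animals D, E and F it stood at 47.1, 44.99 and 40.8 CPM on day 4 and 21.6, 23.3 and 22.4 CPM on day 7. Its highest day 7 level of 31.5 CPM lay below its lowest day 4 level of 38.2, and the mean change was -0.83 ± 0.19 (SD, n = 6). BYSL (bystin), which binds 40S precursors and is needed for their processing, had the highest mean of the 40. Day 4 levels of BYSL (ENSBTAG00000010101) were 29.00, 18.7 and 22.2 CPM in animals A, B and C, followed by 53.5, 31.4 and 22.1 CPM on day 7. The P4 arm, animals D, E and F, had 28.1, 28.7 and 24.6 CPM and then 45.1, 42.7 and 26.2 CPM. It was higher on day 7 in 5 of 6 cows and within 0.01 of day 4 in animal C, with changes of 0.88, 0.75, -0.01, 0.68, 0.57 and 0.09.

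The other 4 late factors were lower. NOB1, the endonuclease that makes the final cut of 18S RNA, had -0.50 ± 0.26 and its partner PNO1 -0.35 ± 0.24 (SD, n = 6). RRP12, an export factor, had -0.45 ± 0.31, with -1.07 in animal F and values from -0.46 to -0.20 in the rest. LTV1, a 40S export adaptor, had -0.34 ± 0.28 and was higher by 0.01 in animal E only.

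Of the 10 genes for 60S assembly, 9 were lower in 6 of 6 cows. RRP8, a methyltransferase for 28S RNA, had the most negative mean of all 40 genes. On day 4 animals A, B and C had 29.5, 31.6 and 37.2 CPM of RRP8 (ENSBTAG00000000697), and on day 7 19.2, 21.6 and 21.8 CPM. For animals D, E and F the levels were 35.00, 27.9 and 28.4 CPM on day 4 and 12.4, 13.7 and 16.3 CPM on day 7. Levels on day 7 lay below all levels on day 4, and the P4 animals D and E were lowest. WDR74, a WD-repeat protein of the 60S pathway, was the exception. WDR74 (ENSBTAG00000009491) stood at 29.2, 24.9 and 23.3 CPM on day 4 in animals A, B and C and at 26.3, 24.2 and 22.7 CPM on control day 7. In animals D, E and F it stood at 25.8, 25.2 and 23.9 CPM on day 4 and 38.8, 29.3 and 19.6 CPM on day 7. Animals D and E were higher on day 7, by 0.58 and 0.22 on the log2 scale. The other 4 were lower, with -0.15, -0.05, -0.03 and -0.29 in animals A, B, C and F.

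PES1, BOP1 and WDR12 form 1 complex (PeBoW) that is known to be needed for 60S assembly. Their mean changes were -0.46 ± 0.17, -0.37 ± 0.07 and -0.22 ± 0.15 (SD, n = 6), each in 6 of 6 cows. BOP1 had the smallest spread between cows of the 40, from -0.44 to -0.27. NOP2, a cytosine methyltransferase for 28S RNA, had -0.71 ± 0.23, and GNL3 (nucleostemin), a GTPase abundant in dividing cells, -0.73 ± 0.33. The values were -0.54 ± 0.26 for RRS1, which loads the 5S particle, -0.45 ± 0.19 for NOC2L and -0.40 ± 0.33 for NOP16.

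The last 5 genes act more broadly. NCL (nucleolin), an abundant nucleolar protein that binds nascent ribosomal RNA, went from 495, 397 and 489 CPM in animals A to C on day 4 to 238, 313 and 335 CPM on day 7. Its levels in animals D to F were 410.0, 477 and 385 CPM and then 256, 244 and 331 CPM. Day 7 lay below day 4 in every animal and by least in animal F. DDX21, a helicase that couples RNA polymerase I and II, had -0.59 ± 0.24 (SD, n = 6). MYBBP1A, a nucleolar regulator of precursor processing, had the most negative mean of the 5. Day 4 levels of MYBBP1A (ENSBTAG00000007430) were 115, 69.7 and 102 CPM in animals A, B and C, followed by 65.97, 62.9 and 78.9 CPM on day 7. The P4 arm, animals D, E and F, had 170.4, 193 and 133 CPM and then 75.5, 117 and 77.1 CPM. It was lower in 6 of 6, with -0.80, -0.15, -0.37, -1.17, -0.72 and -0.78.

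IFRD2 and TRMT1 are no assembly factors. IFRD2 is known to bind inactive ribosomes and had the least negative mean of these 5. On day 4 animals A, B and C had 47.7, 65.1 and 57.1 CPM of IFRD2 (ENSBTAG00000000480), and on day 7 32.2, 39.4 and 35.98 CPM. For animals D, E and F the levels were 32.1, 45.7 and 43.97 CPM on day 4 and 34.9, 33.7 and 39.2 CPM on day 7. Animal D was higher on day 7 and the other 5 lower. TRMT1, which methylates guanosine in transfer RNA, had -0.61 ± 0.19 (SD, n = 6), lower in 6 of 6.

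**Figure D2:**
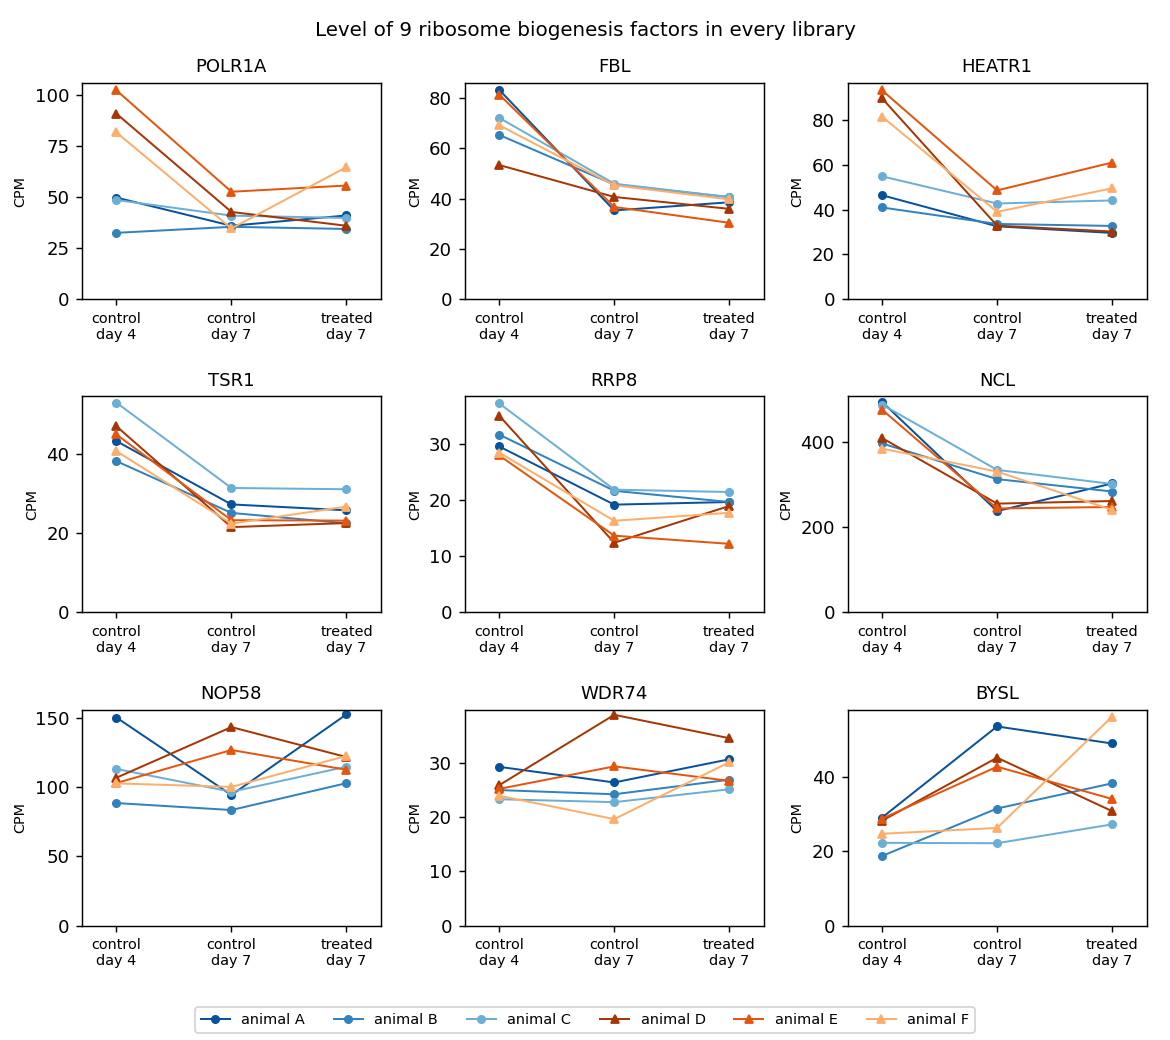
CPM of 9 genes in all 18 libraries, with 1 line per cow joining control day 4, control day 7 and treated day 7 (circles A to C, triangles D to F). POLR1A, FBL, HEATR1, TSR1, RRP8 and NCL are mostly highest on day 4, NOP58 and WDR74 have lines in both directions on control day 7, and BYSL is above its day 4 level on treated day 7 in all 6 cows.

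The call with both arms averaged held without any 1 of the 12 control libraries for NOP56, FBL, DKC1, NOC4L, NAT10, DDX10, TSR1, NOP2, RRP8, GNL3, NCL, DDX21 and TRMT1. It was kept in 1 of the 12 such fits for BOP1, in 2 for POLR1C and for WDR43 and in 4 for IFRD2. As these fits reuse the control cycle libraries, they describe the genes and test nothing. By role, the genes called lower were 2 of 3 for RNA polymerase I, 2 of 3 for box C/D, 1 of 3 for H/ACA, 7 of 10 for the processome, 2 of 6 for late 40S maturation, 7 of 10 for 60S assembly and 5 of 5 of the rest. Over all genes, 4.28% were called lower in this fit.

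Of 129 other ribosome biogenesis genes, 25 fell and 4 rose between day 4 and day 7 with both arms averaged, where 4.28% of all genes were called lower and 6.27% higher. Of the 129, 104 had a negative value and the median log2 change was -0.25 (all genes -0.05). NOLC1, a nucleolar phosphoprotein, fell from 104 to 63.0 mean CPM (-0.72 ± 0.11, SE, edgeR adjusted p = 0.00216) and NOL6, of the processome, from 33.6 to 14.2 (-1.23 ± 0.19, adjusted p = 0.00226). ESF1, a nucleolar protein needed for 18S RNA, rose from 30.6 to 106 mean CPM (1.66 ± 0.26, adjusted p = 0.00239). DIMT1, the 18S dimethyltransferase, rose from 32.2 to 112 (1.80 ± 0.29, adjusted p = 0.00273). AFG2B and RIOK3 were the other two that rose, and these and DIMT1 are named after their values were seen. Of 61 cytosolic ribosomal proteins 1 fell, RPL7A (-0.68 ± 0.13, adjusted p = 0.00721), and 0 rose, with a median of -0.27. RPL7A may share reads with near-identical copies.

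Within single cows the 40 genes and the other biogenesis genes had negative medians in all 6, while ribosomal protein and cell division genes had medians of both signs. For the 40 genes the median log2 change from day 4 to control day 7 was -0.63, -0.34, -0.48, -0.39, -0.47 and -0.45 in animals A to F. The 129 other biogenesis genes had -0.34, -0.18, -0.31, -0.14, -0.29 and -0.11 in the same order. Ribosomal proteins had -0.996, 0.09, -0.37, -0.03, -0.63 and 0.15. Genes of cell division, a list of 30, had -3.26, 0.41, 0.03, -2.13, -3.23 and -1.27. In animals B and C, 38 and 40 of the 40 genes were lower, and the division genes had medians of 0.41 and 0.03. Summed division genes went from 561 to 724 CPM in animal B and from 993 to 977 CPM in animal C. On day 4 they summed to 2109, 1527, 3390 and 2069 CPM in animals A, D, E and F. The part of dividing cells in the change of the 40 genes was not tested. With both arms averaged, 14 of the 30 fell and 0 rose, with a median of -1.65. Of all genes, 4.28% were called lower and 6.27% higher. The dividing-cell marker MKI67 was at 159, 13.2 and 50.5 CPM on day 4 and 9.09, 26.2 and 66.7 CPM on day 7 in animals A, B and C. In animals D to F it was at 167, 458 and 227 CPM and then 14.9, 29.97 and 30.2 CPM, and with both arms averaged it fell (-2.31 ± 0.70, SE, edgeR adjusted p = 0.0475).

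**Figure D3:**
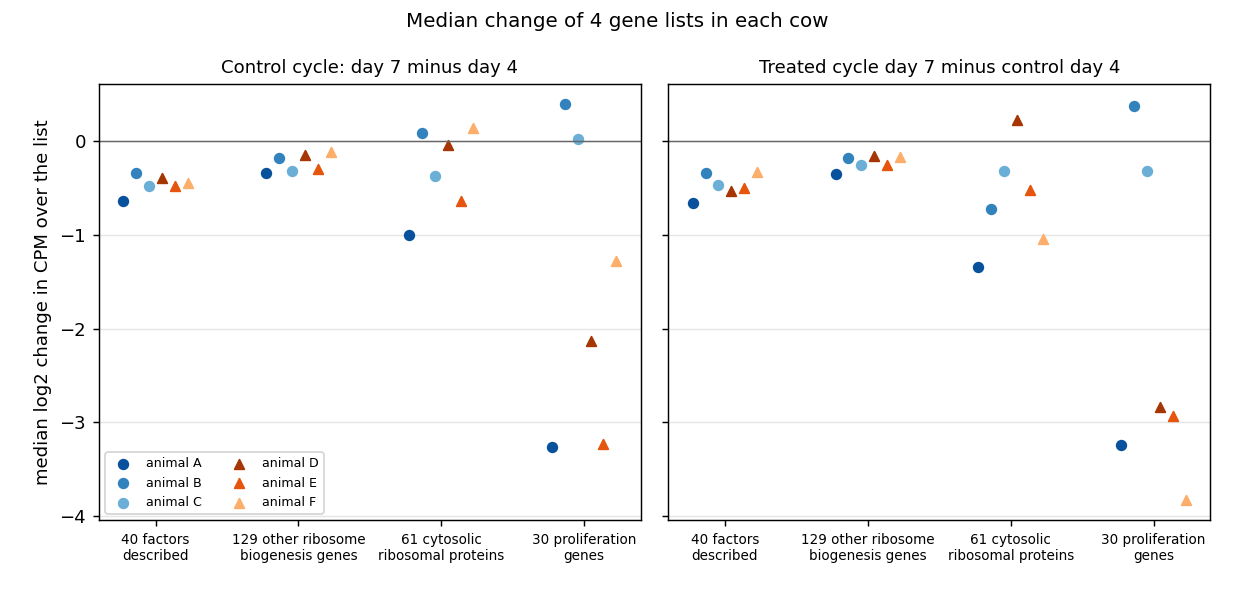
Median log2 change in CPM from control day 4 in each cow over the 40 genes and 3 related lists, on control day 7 (left) and treated day 7 (right). The 40 genes lie between -0.66 and -0.33 in both panels, and the 30 proliferation genes between -3.84 and 0.41.

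MYC was lower on day 7 in 6 of 6 cows. It stood at 59.6, 92.00 and 79.2 CPM on day 4 in animals A to C and at 23.3, 52.4 and 60.7 on day 7. Animals D to F had 69.7, 96.8 and 116 CPM and then 13.5, 18.1 and 61.6 CPM. Its fitted change of -1.18 ± 0.43 (SE) did not pass (edgeR adjusted p = 0.0896). MYCN, its paralog, had -0.60 ± 0.34 (adjusted p = 0.287) at 4.25 CPM or less in every library. Of 11 genes of the MYC network, MLX rose (0.73 ± 0.17, adjusted p = 0.0145) and MXD3 fell (-1.81 ± 0.50, adjusted p = 0.0336). In the same fit 6.27% of all genes rose and 4.28% fell.

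Markers of T and NK cells were lower beside the 40 genes. Of the 12, 12 had a negative fitted change (53.9% of all genes) and 2 fell (IL2RB and CD3E, against 4.28%). Their summed level ran from 125 to 213 CPM on day 4 and 119 to 166 on control day 7 in animals A to C. In animals D to F it ran from 147 to 317 and from 74.9 to 98.7 CPM, and none of the 12 was at 0 in a library. Stromal markers were higher in animals B and D (medians 1.59 and 0.84) and lower in the other 4 (animal F by a median of -4.06). The 40 genes had negative medians in all 6. Neutrophil markers, a list of 5, had a summed level of 6.08, 5.58 and 145 CPM on day 4 in animals A to C and 72.2, 127 and 166 on control day 7. In animals D to F they had 34.2, 22.3 and 111 CPM and then 489.9, 210.4 and 58.4 CPM, so they were higher on day 7 in 5 of 6 cows. Summed macrophage markers were higher in animals A, B, D and E and lower in C and F, with a median fitted log2 change of 0.33 over 6 genes. None of these 11 genes passed the test, and 0 of them were at 0 in a control library. Summed epithelial markers were lower on control day 7 in animals A to E and higher in F. Summed ciliated cell markers had the same directions. With both arms averaged, the median fitted log2 changes were -0.10 over 7 epithelial and -0.41 over 8 ciliated genes, and none passed. The part of immune or stromal cell RNA or of epithelial composition in the levels of the 40 genes was not tested.

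On day 7 of the treated cycle most of the genes stood below control day 4 again. This comparison uses the same day 4 libraries as the previous one and is a description too. Of 240 values within cows 214 were below 0, and 30 genes were lower in 6 of 6 cows (13% of all genes). Both on control day 7 and on treated day 7, 26 of the 40 were below day 4 in every cow, against 5.88% of all genes. The medians of the 40 in animals A to F were -0.66, -0.34, -0.46, -0.53, -0.50 and -0.33.

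In the 17-OHPC/P4 arm 4 of the 40 were called lower than day 4 and 0 higher, against 0.0255% and 0.657% of all genes. They were TRMT1, FBL, IFRD2 and TSR1, with fitted log2 changes of -0.77 ± 0.14, -0.88 ± 0.17, -0.80 ± 0.16 and -0.76 ± 0.16 (SE). FBL stood at 38.5, 40.6 and 40.6 CPM in the treated samples of animals A to C, all below its day 4 range of 65.3 to 83.2. IFRD2 stood at 29.9, 32.9 and 34.7 CPM there, TRMT1 at 14.3, 15.04 and 15.6 and TSR1 at 25.8, 22.5 and 31.1, again with no overlap with day 4. With the animal as a replicate block the count was 8, with DESeq2 16, and it was 0 when only the compared groups were fitted. For these fits the share of all genes called was not counted. It was 0 without animal A's or B's treated library or animal B's or C's day 4 library, 2 without animal C's treated library and 5 without A's day 4 sample. Leaving animal C out altogether gave 0. The treated libraries lay below all day 4 libraries for 27 of the 40 genes, against 12.9% of all genes.

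In the P4 arm 13 were called lower than day 4 and 0 higher, against 3.16% and 4.32% of all genes. TSR1, FBL, DDX21, RRP8, NOP2 and NCL had the smallest p, with fitted changes from -0.94 (FBL) to -0.67 (NOP2). TSR1 stood at 22.6, 23.2 and 26.8 CPM in the treated samples of animals D to F, below its day 4 range of 40.8 to 47.1. DDX21 stood at 64.9, 57.8 and 58.4 CPM against 127, 107 and 92.7 on day 4. RRP8 stood at 18.9, 12.2 and 17.7 and NOP2 at 41.5, 52.6 and 41.2 CPM, both below every day 4 library of the arm. NCL stood at 262, 248 and 241 CPM, a narrow range under its day 4 levels. Treated libraries lay below all day 4 libraries for 33 of the 40 genes and above them for 3 (NOP58, BYSL and WDR74), against 18.2% and 16.5% of all genes. DESeq2 called 21 (share of all genes not counted), the fit of the compared groups 4, and the count was 0 without animal E's day 4 library. It was 2 without either library of animal F, 4 and 6 without the treated and the day 4 library of animal D, and 9 without animal E's treated library or without all libraries of animal C.

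NOP58, WDR74 and BYSL were the 3 genes above day 4 in 6 of 6 treated samples. BYSL stood at 48.9, 38.2 and 27.2 CPM in animals A to C and 30.7, 33.99 and 56.1 in D to F, each above the same cow's day 4 level, by 0.75, 1.03, 0.29, 0.13, 0.24 and 1.18 on the log2 scale. The changes of NOP58 were small, from 0.02 to 0.26, and those of WDR74 ran from 0.07 to 0.42. None of the 3 passed the test in either arm.

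Outside the 40 genes, ESF1 and DIMT1 rose against day 4 in the 17-OHPC/P4 arm (1.88 ± 0.37 and 1.93 ± 0.41, SE, edgeR adjusted p = 0.0415 and 0.0480) and RPL7A fell (-1.07 ± 0.19, adjusted p = 0.0268). Of the 129 other biogenesis genes 2 rose and 0 fell there, against 0.657% and 0.0255% of all genes. In the P4 arm 3 rose (ESF1, AFG2B and DIMT1) and 14 fell, against 4.32% and 3.16% of all genes. SDAD1, a 60S factor, fell in the P4 arm by 1.18 on the log2 scale (adjusted p = 0.00721), NOL6 fell by 1.52 (adjusted p = 0.0101) and ESF1 rose (2.13 ± 0.37, adjusted p = 0.00925). In the P4 arm MKI67 (-4.16 ± 1.07, adjusted p = 0.0331) and MYCN (-1.85 ± 0.50, adjusted p = 0.0381) fell and MYC did not pass (-1.84 ± 0.61, adjusted p = 0.0808). In the 17-OHPC/P4 arm MYC (-1.85 ± 0.61, adjusted p = 0.137), MKI67 (-1.43 ± 0.96, adjusted p = 0.391) and MYCN (0.12 ± 0.49, adjusted p = 0.902) did not pass.

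The question of the treatment is how treated day 7 compares with control day 7 of the same cows. The tests and 95% intervals given here come from the fit with 1 mean per group, which does not pair the libraries of a cow. With the animal as a replicate block 0 of the 40 were called as well. These tests share the control day 7 libraries with the contrast that is described first. No member passed in either arm, and neither did any other of the 19638 genes (0%, edgeR). At an unadjusted p under 0.05 there was 1 of the 40 for 17-OHPC/P4 (1.89% of all genes) and 0 for P4 (3.03%), and DESeq2 called 0 of the 40 in both. With animal C left out the counts were 0 too. Summed macrophage markers ran from 72.6 to 321 CPM in the control day 7 libraries and from 18.8 to 91.1 in the treated ones, and their part was not tested. Fitted log2 differences ran from -0.23 to 0.43 with 17-OHPC/P4 and from -0.29 to 0.27 with P4 alone, with medians of 0.03 and 0.02. The 95% intervals lay inside -1 to 1 for 40 of 40 genes in both arms, and inside -0.5 to 0.5 for 24 and 19. For the rest the intervals reach past 0.5 on the log2 scale, and these p-values do not show that the cycles were alike.

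In the 17-OHPC/P4 arm the smallest p belonged to NOP58, which stood at 94.5, 83.6 and 96.8 CPM on control day 7 and 153, 103 and 115 on treated day 7 in animals A to C. The 3 treated libraries lay above the 3 controls. The fitted difference was 0.43 ± 0.20 (SE, 95% interval 0.01 to 0.85, adjusted p = 0.990). LTV1 stood at 22.7, 18.00 and 18.1 CPM in the controls and 25.4, 25.4 and 23.1 in the treated samples (0.33 ± 0.17, 95% interval -0.04 to 0.70), without overlap and not past the threshold. TRMT1 stood at 16.8, 20.2 and 15.9 and then 14.3, 15.04 and 15.6 CPM (-0.23 ± 0.14, -0.54 to 0.07), all treated libraries being lower. In all, treated libraries lay above the controls for 3 of the 40 (NOP58, LTV1 and DDX10) and below for 1, against 3.98% and 4.57% of all genes. Within cows, 10 of the 40 were higher in every animal of the arm and 5 lower, against 19.4% and 20.9% of all genes.

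In the P4 arm WDR12 had the smallest p. It stood at 24.9, 21.3 and 23.9 CPM on control day 7 and 18.97, 20.7 and 19.3 on treated day 7 in animals D to F, without overlap (-0.25 ± 0.13, SE, 95% interval -0.52 to 0.03, edgeR adjusted p = 1). It was below control day 7 in the 3 cows of the other arm as well. GAR1 stood at 23.6, 20.4 and 19.1 and 18.02, 17.7 and 16.4 CPM (-0.28 ± 0.16, -0.62 to 0.07), also without overlap. PNO1 stood at 13.9, 13.1 and 18.2 and 13.7, 10.1 and 13.03 CPM (-0.29 ± 0.18, -0.69 to 0.10), where animal D's treated library overlapped the controls. None of these passed. Groups did not overlap for 2 genes lower and 1 higher (TRMT1), against 2.41% and 3.34% of all genes. Within cows, 10 of the 40 were lower in every animal of the arm and 3 higher, against 9.48% and 9.96% of all genes.

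**Figure D4:**
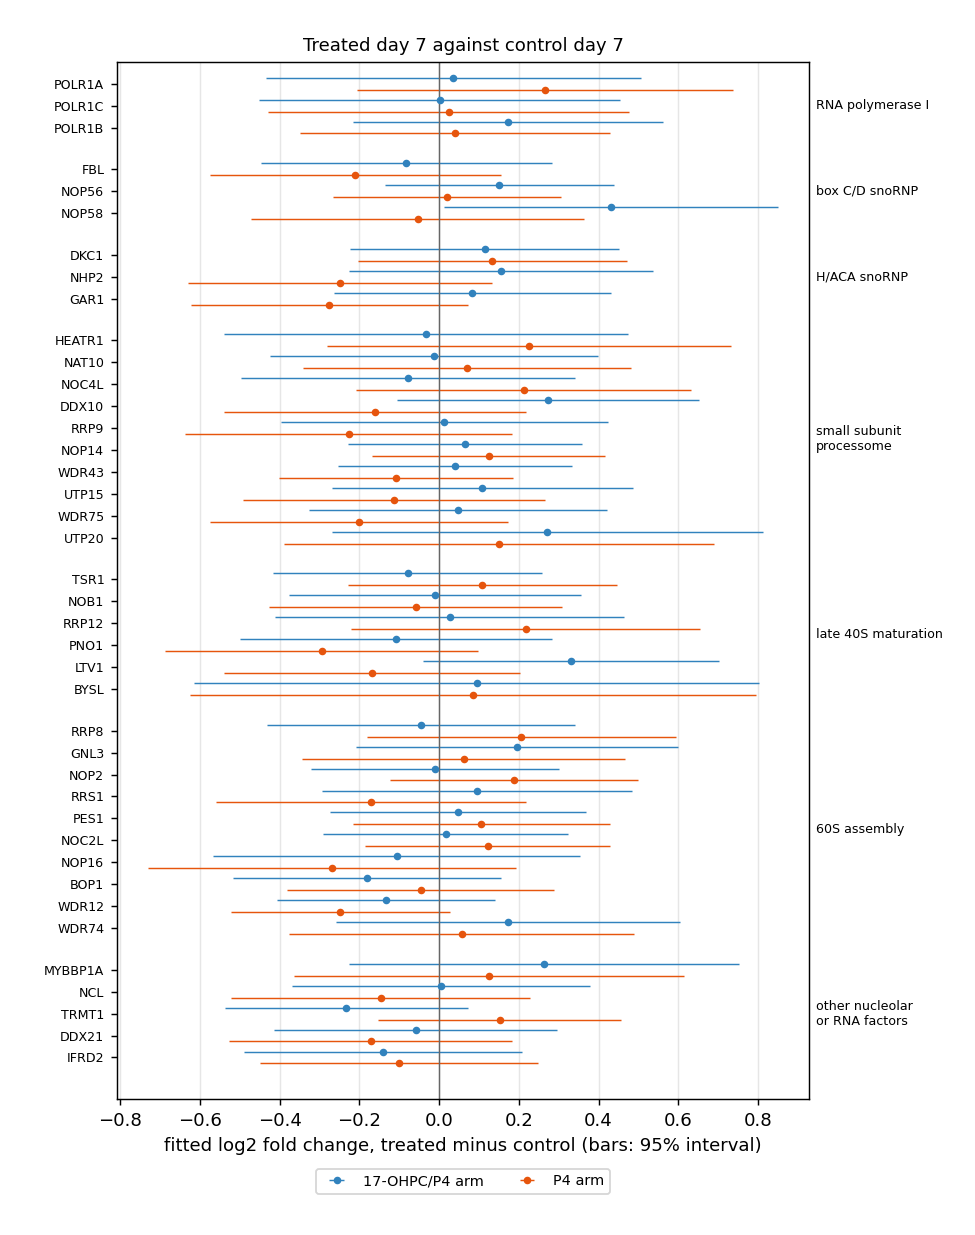
Fitted log2 fold change of treated against control day 7 for the 40 genes, with 95% intervals, in the 17-OHPC/P4 arm (blue) and the P4 arm (orange). The points lie between -0.29 and 0.43, and 1 interval, that of NOP58 in the 17-OHPC/P4 arm, does not include 0.

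Some genes went in opposite directions in the arms. LTV1, NHP2 and DDX10 were above control day 7 in 3 of 3 treated samples with 17-OHPC/P4 and below in 3 of 3 with P4 alone, a pattern held by 1.14% of all genes. TRMT1 had the reverse, held by 1.23%. LTV1 changed by 0.16, 0.49, 0.35, -0.26, -0.19 and -0.04 in animals A to F, and TRMT1 by -0.23, -0.42, -0.02, 0.14, 0.14 and 0.17. The difference of the responses was 0.50 ± 0.25 for LTV1, -0.38 ± 0.20 for TRMT1, 0.49 ± 0.28 for NOP58, 0.44 ± 0.25 for DDX10 and 0.40 ± 0.25 for NHP2 (SE). None passed the interaction test (edgeR adjusted p = 1 each), and 0 of the 40 had an unadjusted p under 0.05 (1.26% of all genes), with 0 calls by edgeR (0% of all genes) and by DESeq2.

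MYC stood at 8.73, 23.1 and 32.2 CPM in the treated samples of animals A to C, each below the cow's control day 7 level, and at 44.5, 21.9 and 12.8 in D to F, below it in animal F and above it in D and E. Neither difference passed (-1.09 ± 0.60 and -0.24 ± 0.60, SE, edgeR adjusted p = 0.990 and 1). Of the 129 other biogenesis genes, 0 were called in either arm, with median log2 differences of 0.04 and -0.03. Of the 61 ribosomal proteins 0 were called either, though 60 and 61 had negative fitted values, with medians of -0.38 and -0.33 beside 0.03 and 0.02 for the 40 genes. By cow those medians differed in sign, at -0.37, -0.79, 0.04, 0.24, 0.10 and -1.19 in animals A to F. MKI67 (-0.30 ± 0.94 and -0.65 ± 0.95, adjusted p = 0.992 and 1) and MYCN (0.30 ± 0.49 and -0.83 ± 0.49, adjusted p = 0.990 and 1) did not pass.

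The treated arms were compared with each other on day 7, in libraries that no description from the control cycle uses. No member passed (0 called, with 2 of all genes called lower, 0.0102%, and 0 higher), 5 of the 40 had an unadjusted p under 0.05 (9.13% of all genes) and DESeq2 called 0. RRP12 had the smallest p and stood at 45.4, 56.99 and 50.8 CPM in animals A to C and 67.2, 90.6 and 81.3 in D to F, without overlap. The fitted difference was -0.64 ± 0.21 (SE, 95% interval -1.08 to -0.20, adjusted p = 0.357). NOP2 stood at 33.5, 35.4 and 34.8 and 41.5, 52.6 and 41.2 CPM (-0.38 ± 0.15, adjusted p = 0.441). NOC2L stood at 29.6, 26.95 and 26.4 and 29.7, 37.01 and 37.7 CPM (-0.33 ± 0.14, adjusted p = 0.510), again without overlap. The other 2 of the 5 were TRMT1 and BOP1. Groups did not overlap for 5 genes lower (DKC1, RRP12, NOP2, NOC2L and TRMT1) and 7 higher, against 7.08% and 6.33% of all genes.

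The arms were also compared on day 4 of the control cycle, before any injection. POLR1A was the 1 member called, at 49.7, 32.5 and 48.6 CPM in animals A to C and 90.8, 102 and 81.7 in D to F, where 1.46% of all genes were called lower and 1.3% higher. Its fitted difference was -1.07 ± 0.22 (SE, 95% interval -1.55 to -0.60, adjusted p = 0.0317). POLR1A no longer passed, and 0 members did, when the day 4 sample of B, C, D, E or F was left out, when animal C was left out altogether or when only the compared groups were fitted. DESeq2 called 7 members, and the share of all genes it called was not counted. On control day 7 the same animals had 35.9, 35.4 and 40.9 and 42.7, 52.6 and 34.6 CPM, which overlap.

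Other members that stood lower in the 17-OHPC/P4 arm on day 4 were values that did not pass. HEATR1 had 46.4, 40.9 and 54.8 CPM in animals A to C and 89.6, 93.2 and 81.5 in D to F (-0.89 ± 0.24, adjusted p = 0.0572). MYBBP1A (-0.79 ± 0.23, adjusted p = 0.0726), NOP2 (-0.48 ± 0.15, adjusted p = 0.0789) and UTP20 (-0.80 ± 0.25, adjusted p = 0.0895) lay the same way. RRP12 had 65.9, 57.6 and 71.9 and 94.8, 96.8 and 92.05 CPM, without overlap (-0.54 ± 0.21, adjusted p = 0.149), so its treated difference had the sign it had on day 4. IFRD2 (0.48 ± 0.16) and PNO1 (0.51 ± 0.18) lay the other way. Groups did not overlap for 10 genes lower and 7 higher on day 4, against 15.5% and 15.6% of all genes. Of the 129 other biogenesis genes, 5 were called higher in the 17-OHPC/P4 arm and 3 lower (PELP1, TCOF1 and NOL9). Over all genes these shares were 1.3% and 1.46%. The 5 were MRTO4 (0.58 ± 0.12, edgeR adjusted p = 0.0337), NGDN (0.64 ± 0.15, adjusted p = 0.0381), RIOK2 (0.54 ± 0.12, adjusted p = 0.0383), MAK16 and SBDS. MKI67 (-1.93 ± 0.97, adjusted p = 0.255), MYC (-0.29 ± 0.59, adjusted p = 0.805) and MYCN (-1.71 ± 0.50, adjusted p = 0.0713) did not pass.

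On control day 7 no member passed between the arms (0.00509% of all genes were called lower and 0% higher, 3 members had an unadjusted p under 0.05 against 10.6%, and DESeq2 called 0). RRP8 stood at 19.2, 21.6 and 21.8 CPM in animals A to C and 12.4, 13.7 and 16.3 in D to F, without overlap (0.56 ± 0.18, SE, adjusted p = 0.282). NOP58 stood at 94.5, 83.6 and 96.8 and 144, 127 and 100.3 CPM (-0.43 ± 0.20, adjusted p = 0.461). RRP12 had -0.45 ± 0.21 (adjusted p = 0.463), negative as on both other samplings. Groups did not overlap for 4 genes lower (NOP58, PES1, BOP1 and NOC2L) and 3 higher (NOC4L, TSR1 and RRP8), against 6.8% and 7.1% of all genes. MYC, MYCN and MKI67 did not pass between the arms on control day 7 (adjusted p = 0.786, 0.547 and 0.909, edgeR) or treated day 7 (0.947, 0.945 and 0.884).

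**Figure D5:**
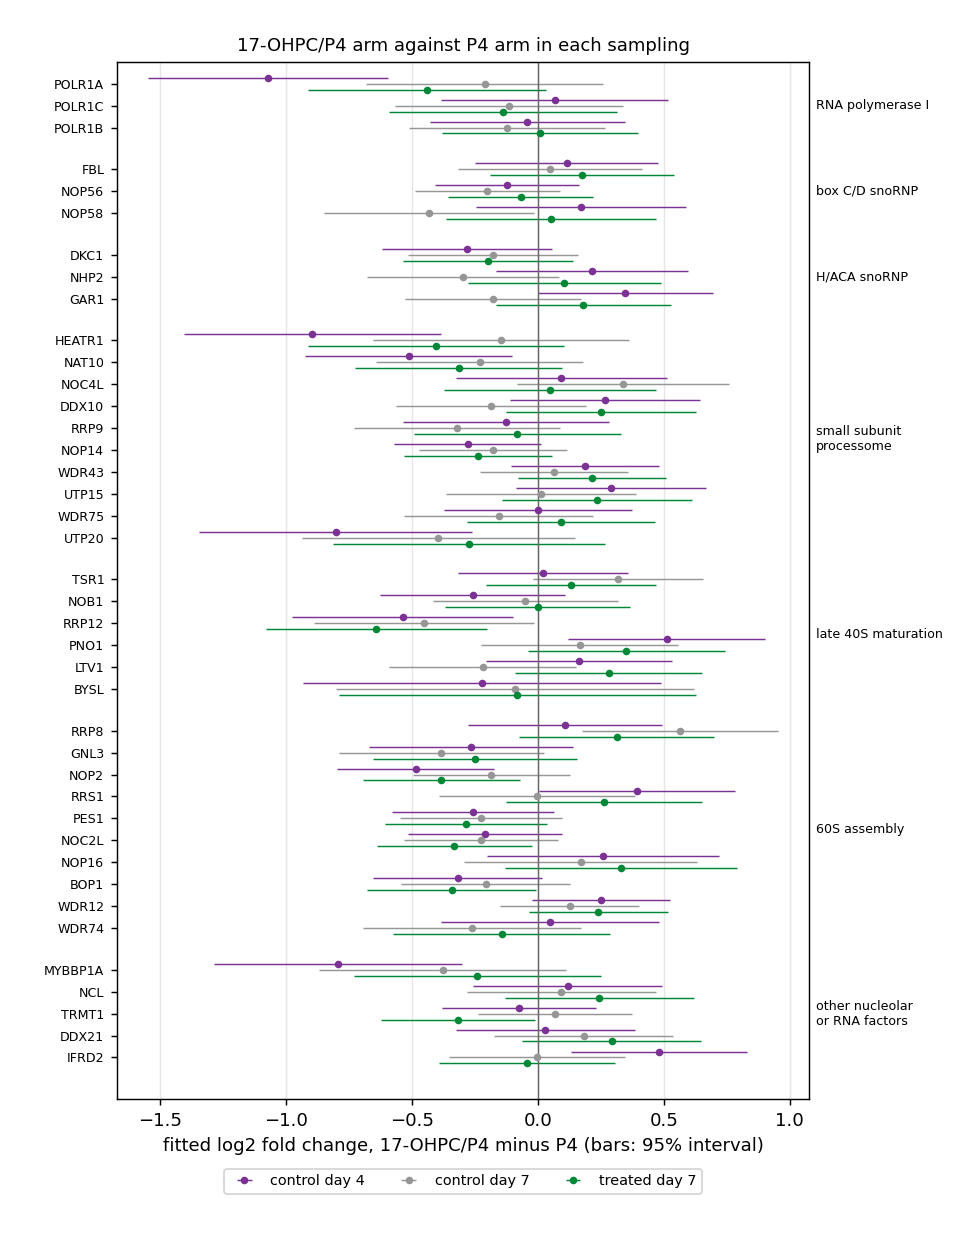
Fitted log2 difference of the 17-OHPC/P4 arm from the P4 arm for the 40 genes, with 95% intervals, on control day 4 (purple), control day 7 (grey) and treated day 7 (green). POLR1A on day 4, at -1.07, is the point farthest from 0 and the 1 difference that passed, and RRP12 lies between -0.64 and -0.45 on all 3.

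The day 4 to day 7 change of the control cycle did not differ between the arms past the threshold for any member (0 called by edgeR, 0% of all genes, 0 by DESeq2, 4 at an unadjusted p under 0.05, 7.71% of all genes). The smallest p was that of POLR1A, whose within-cow change was -0.20 ± 0.30 in animals A to C and -1.09 ± 0.14 in animals D to F (SD, n = 3 each). The fitted difference was 0.86 ± 0.31 (SE, edgeR adjusted p = 0.558). HEATR1 had 0.75 ± 0.34, GAR1 -0.53 ± 0.23 and NOP58 -0.60 ± 0.28 (adjusted p = 0.625, 0.617 and 0.635). MYC, MYCN and MKI67 did not pass in this test (adjusted p = 0.844, 0.810 and 0.719) or in that of the treatment responses (1 each).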

How the data were processed

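RNA from cytobrush samples of the uterine horn beside the corpus luteum was sequenced as polyadenylated RNA in 18 libraries. Per the submitters' processing notes, cutadapt, FastQC, STAR, featureCounts and DESeq2 were used; their versions, the build, annotation and strand, and how read pairs were counted, were not stated in labels or headers. Values in the authors' deposited table are raw counts per gene, and 75.7% of those from 1 to 49 are even, so mates may have been counted singly and totals may overstate fragments. The 40 genes and all lists were chosen with earlier results of these data known.

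Counts were fitted with edgeR 4.0.16 (R 4.3.3, limma 3.58.1) by the quasi-likelihood F test, with filterByExpr, TMM scaling, 1 mean for each of 6 groups and robust dispersion (biological coefficient of variation 51.4%). Benjamini-Hochberg adjustment ran over 19638 genes in each of 12 comparisons, and an adjusted p under 0.05 was called. A standard error is the log2 fold change divided by the root of F. Changes within a cow are differences of log2 CPM with a prior count of 2. The fit was tested on simulated data with planted log2 changes of 1 and 2, in libraries without cow effects. That simulation does not cover smaller changes or the pairing by cow. Alternatives were DESeq2 1.42.0, RLE scaling, no filter, only the compared groups, each library left out, the animal as a block and, added after seeing the data, animal C left out. Libraries are paired by cow, per the labels. Same-cow deviations correlated at 0.393 to 0.718 in the 17-OHPC/P4 arm and -0.0712 to 0.357 in the P4 arm. Between day 4 and control day 7 the correlations were 0.314, -0.011 and -0.003 in animals D, E and F. The pairing by cow was thus not visible there in animals E and F.

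Genes were named by a rule. For the control cycle, the genes with the most and least negative mean change in each role are given by cow. For other comparisons, up to 6 called genes with the smallest p are given, or else the 3 with the smallest p. Some members are also named outside this rule, for their values. Between the arms on day 4 these are HEATR1, MYBBP1A, NOP2, UTP20, RRP12, IFRD2 and PNO1. In the interaction tests they are DDX10 and NHP2 (treatment responses) and NOP58 (day 4 to day 7 changes). Genes listed for groups that did not overlap are further ones. Outside the list, up to 3 called genes, MYC, MYCN and MKI67 are given. Neither sequences nor coordinates were used here.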

Additional observations from a re-analysis of the deposited data

Results flagged for a closer look

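Of 120 sets of 6 within-cow changes (40 genes in 3 comparisons), 6 held a cow far from the other 5 by Dixon's criterion, which chance meets in about 1 of 20 sets. RRP12 changed by -1.07 from control day 4 to day 7 in animal F. HEATR1 changed by -1.57 from day 4 to treated day 7 in animal D, and NOP56 by only -0.16 in animal B. Between control and treated day 7, RRP8 was higher by 0.61 in animal D, NOP14 by 0.42 in animal F and FBL by 0.13 in animal A, all on the log2 scale.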

How the results depend on the processing

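The counts of the 40 genes called between treated and control day 7, between the arms on either day 7 and in both interaction tests were 0 under every alternative run. Counts under the alternatives cover the 40 genes only, and the share of all genes called was not counted for them. For control day 7 against day 4 over both arms, the main count of 26 was 14 to 27 with 1 library left out. In the 17-OHPC/P4 arm (main 0) it was 13 with DESeq2, and 0 with any 1 library left out. In the P4 arm (main 16) it was 8 without the filter, 6 with only the compared groups and 3 to 11 with 1 library left out. For treated day 7 against day 4 the 17-OHPC/P4 count (main 4) was 16 with DESeq2, 0 without the filter or with only the compared groups, and 0 to 5 with 1 library left out. The P4 count (main 13) was 21 with DESeq2, 7 without the filter, 4 with only the compared groups and 0 to 9 with 1 library left out. Between the arms on day 4 (main 1) it was 7 with DESeq2, 0 with only the compared groups and 0 to 1 with 1 library left out.

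With the animal as a replicate block, 1 gene was called in the 17-OHPC/P4 arm between day 4 and day 7 of the control cycle, TSR1, and 8 between day 4 and treated day 7. The block moved no other count by more than 1.5 times. With all libraries of animal C left out, a choice made after seeing the data, 10 were called in the P4 arm on control day 7 against day 4, 0 in the 17-OHPC/P4 arm on treated day 7 against day 4 and 0 between the arms on day 4.

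Among values for single genes, 841 kept direction and side of the threshold, 105 no longer passed, 5 newly passed and 14 changed sign; the cause was not tested. With both arms averaged, NOP58 (main -0.06) was 0.0023 without the filter, 0.000314 with only the compared groups and -0.140 to 0.0539 with 1 library left out (0.0183 without animal B's day 7 and 0.0086 without animal F's), and WDR74 was -0.0195 (without animal D's day 7 library) to 0.184. In the 17-OHPC/P4 arm UTP20 was 0.0065 without the filter and -0.259 to 0.203 with 1 library left out (0.0233 and 0.0982 without animal A's and animal C's day 4 library, 0.103 without animal C), and WDR74 -0.150 to 0.0205. In the P4 arm GAR1 was -0.0407 to 0.0981 (-0.0192 without animal F's day 4 library). RLE scaling moved the median of the 40 genes by at most 0.05.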
